A study of Mus musculus with 4 samples.

Results

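The genes described here are the heat shock proteins and the chaperones of the cytosol with their partners: the Hspa, Hspb, Hspd, Hspe and Hsph genes, the cytosolic Hsp90 genes, the Dnaja, Dnajb and Dnajc genes, the Cct genes, and Tcp1, Bag1, Bag3, Hsf1 and Stip1. They were chosen by symbol alone, without measured values, leaving out the endoplasmic reticulum genes Hspa5 and Dnajb9, the unrelated Hspg2 and pseudogenes. The rule found 84 of the 32812 genes with a symbol. The name pattern also takes in mitochondrial members (Hspa9, Hspd1, Hspe1) and some J proteins of the endoplasmic reticulum, so not every member is cytosolic. Their RNA was measured by paired-end RNA sequencing in mouse female germline stem cells of strain C57BL/6, cultured cells of ovarian origin held for more than 20 passages. A control group of 2 libraries was compared with 2 libraries of cells given spermidine, a polyamine; the series names 4 h as the time, and no dose was found in the labels. Nothing in the labels says that the libraries are separate cultures, and the p-values below therefore reflect the spread between libraries, which may be technical.

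Chaperones bind proteins that are not yet folded, or that have lost their fold, and most use ATP in cycles of binding and release. HSP70 proteins take up exposed stretches of a chain, J proteins bring them their clients and trigger ATP use, HSP110 proteins exchange their nucleotide, and HSP90 acts later on clients such as kinases and steroid receptors. The CCT chaperonin is a double ring that folds actin and tubulin, small HSPs hold unfolded proteins without ATP, and the transcription factor HSF1 raises many of these genes in stress by binding heat shock elements in their promoters.

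The libraries differed in ways that touch every value below. Totals were 7206176 and 7128901 counts for control, against 787600 and 1718944 for spermidine. A row that overlaps ribosomal RNA, AY036118, took 1.64% (95% exact Clopper-Pearson interval 1.63 to 1.65) to 1.68% (1.67 to 1.69) of control counts and 29.6% (29.5 to 29.7) to 30.7% (30.6 to 30.8) of spermidine counts. Intervals here cover counting error only. Olfactory and vomeronasal receptor genes, which serve as a gauge of background, had counts on 862 of 1371 models in spermidine replicate 1, against 121 in spermidine replicate 2 and 22 and 61 in control replicates 1 and 2. Across tested genes, log2 CPM (counts scaled to library size) correlated at 0.969 between the controls and at 0.732 between the spermidine libraries, a description over genes that share each library's depth. The labelled cell type was only partly visible. Of 10 germline markers, 4 to 5 had no count in each control and 2 to 5 in the spermidine libraries, although some can hardly be counted (Nanos3 has 12 own bases and Fgfr1 has 0). Of the 5 tested, 3 were called higher and 1 lower: Tex19.1, the most counted of them in control, had 1955 and 1770 counts in control and 36 and 25 in spermidine. The defining germ cell gene Ddx4 had 1 count in all 4 libraries, on 434 own bases. Own bases are those that no other transcript row covers, and nearly all counts fell on rows that have some. Summed oocyte markers (8 genes) read 1.45 and 2.60 CPM in control against 156.7 and 2197.4 CPM in spermidine. Granulosa markers (8 genes) read 117.3 to 140.9 against 746.7 to 6442.7 CPM, and stroma markers (6 genes) 44.9 to 87.7 against 1405.3 to 7234.2 CPM. Most granulosa counts in control were on 1 gene, Cyp11a1, with 939 of 972 and 764 of 811. In spermidine Cyp11a1 had 234 of 653 and 138 of 9051, so it did not follow the sum. Leukocyte and erythroid markers (11 genes) read 1934.7 to 2625.7 CPM in control and 402.5 to 595.8 CPM in spermidine, with 5 called lower and 1 higher. The haemoglobin genes of that list went the other way. Hba-a1 had 20 and 28 counts in control and 63 and 554 in spermidine, and Hbb-bt 0, 6, 1 and 37. In the same list and order, Tfrc had 2053, 1240, 13 and 21 counts, Gata1 17, 16, 0 and 0, and Pf4 8, 17, 12 and 7. The number of markers at 0 in a library was 2 to 5 for oocyte, 2 to 3 for granulosa, 0 to 1 for stroma and 1 to 2 for blood cells. The part of depth, background and other cell types in the results below was not tested, and fewer cells of a type cannot be told apart from less RNA per cell.

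The abundant constitutive chaperones were lower in both spermidine libraries than in both controls, most without passing the test. A few members with few counts were called higher: 3 small HSPs and some HSP70-like and J protein genes. Each had fewer than 2 controls over the low-count filter and entered the test through the spermidine libraries. Their calls therefore support no statement about their role groups. Of the 84 members, 42 had enough counts to be tested. The quasi-likelihood test of edgeR was fitted to all 7836 tested genes with p adjusted by Benjamini-Hochberg, and it called 28.8% of them in either direction. By it, 6 members (14.3%) were called higher after spermidine, where 24.8% of all tested genes were, and 2 (4.76%) lower, where 3.99% were. The log2 fold change (spermidine minus control) was negative for 27 members and positive for 15. The median was -0.59 against 0.23 over all tested genes. Both spermidine libraries lay below both controls for 19 members (45.2%), against 29.6% of all tested genes, and above both for 9 (21.4%), against 36.6%. The other 14 overlapped. The split went with abundance: all 15 members whose mean log2 CPM reached 8, a limit chosen after the values were seen, had negative values with a median of -1.33, and 14 of them (93.3%) lay below both controls. Genes of that abundance did so in general, since 486 of 690 (70.4%) lay below both controls, with a median of -1.08 and 18.7% called lower.

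**Figure D1:**
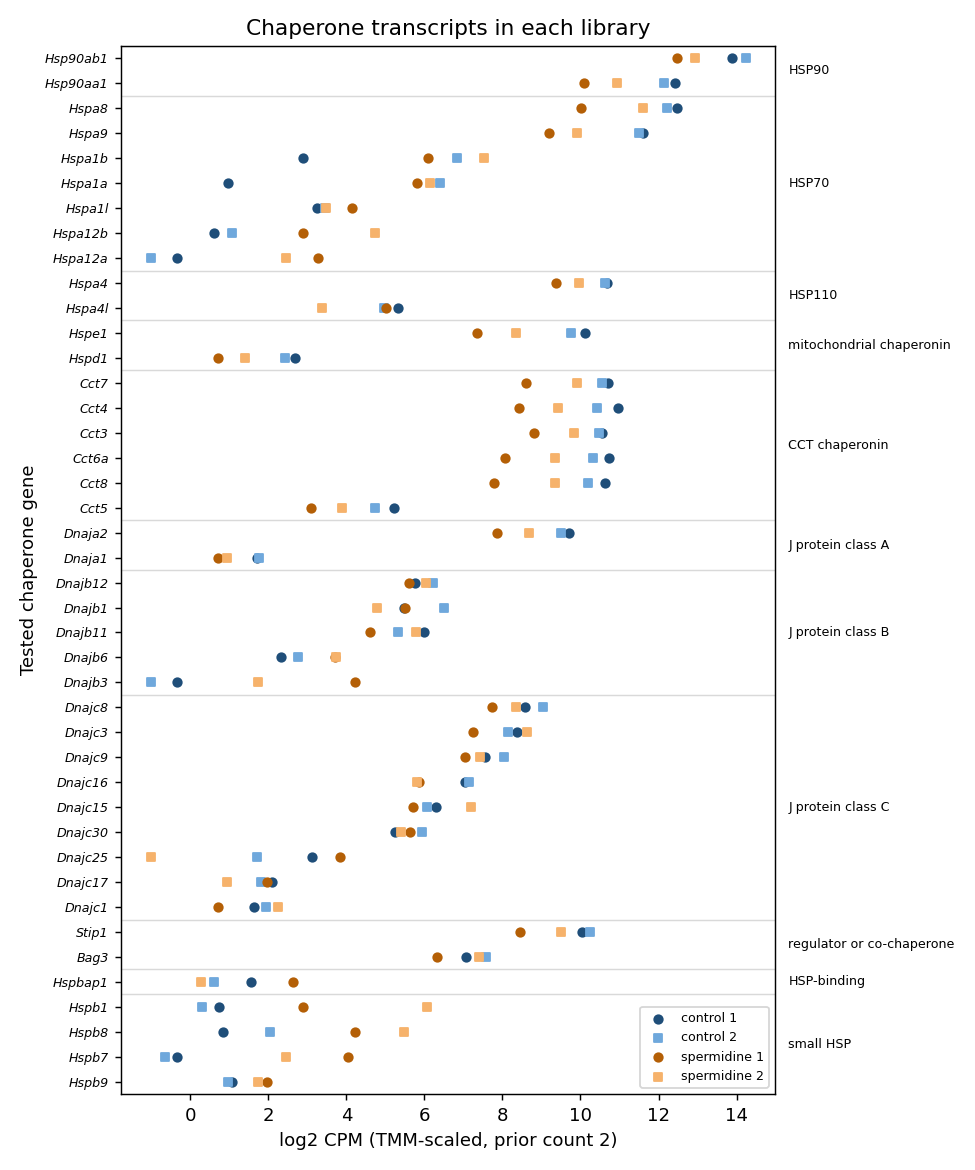
Log2 CPM of each of the 42 tested members, 1 point per library, grouped by role. Hsp90ab1 and most other abundant members sit lower in both spermidine libraries, and Hspb1, Hspb7 and Hspb8 sit higher.

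**Figure D2:**
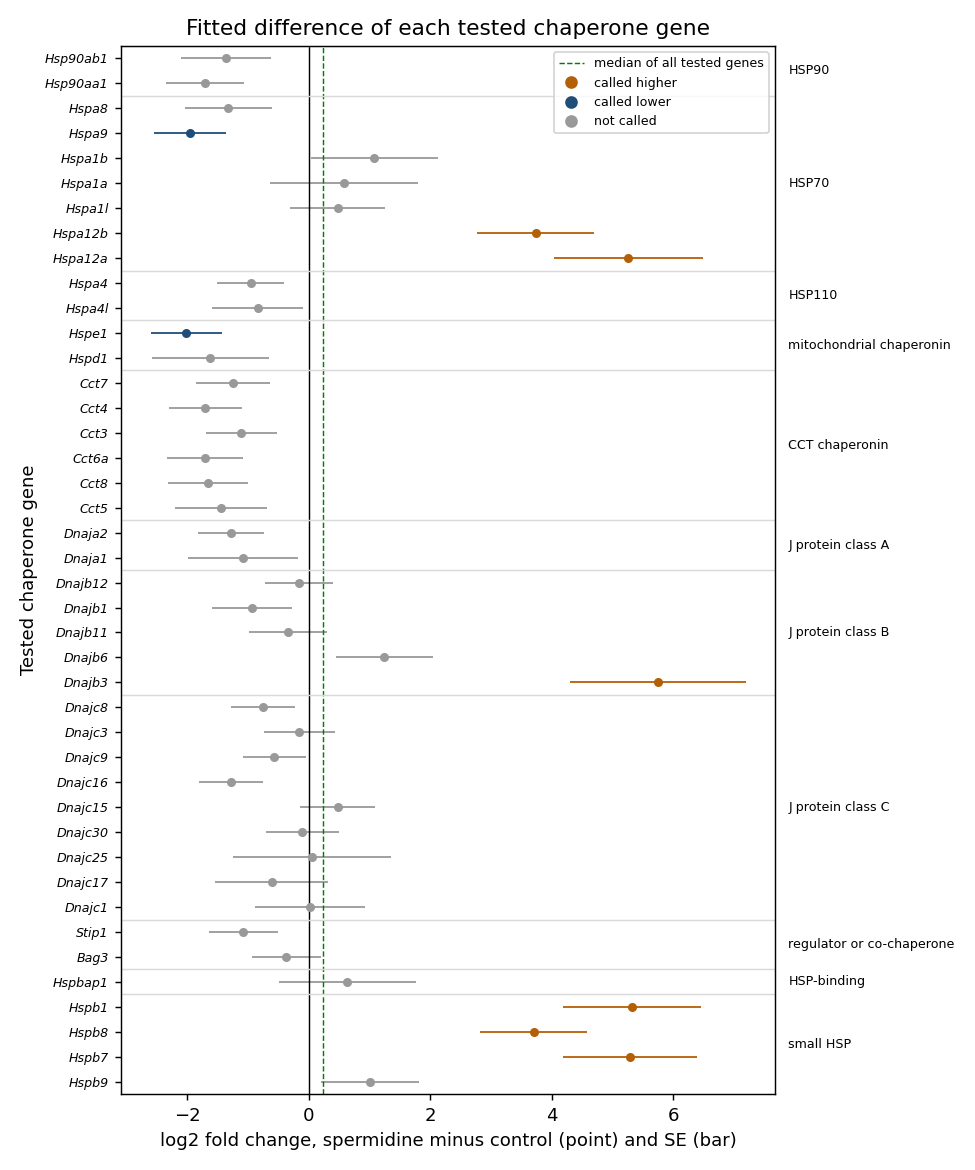
Log2 fold change (spermidine minus control) of each of the 42 tested members, by role, with bars of 1 SE; colours mark called members and the dashed line the median of all tested genes (0.23). The 6 CCT subunits lie between -1.71 and -1.11 and the 4 small HSPs between 1.0 and 5.32.

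The HSP90 pair was the most abundant group. Hsp90ab1, the constitutive form, had 104897 and 132925 counts in control replicates 1 and 2 and 4940 and 10929 in spermidine replicates 1 and 2. Scaled to library size, that was 15201.0, 19233.8, 5648.8 and 7779.5 CPM. Its log2 fold change was -1.36 ± 0.74 (SE, n = 2 against 2; edgeR adjusted p = 0.207). Hsp90aa1, the stress-inducible form, had 37955, 30933, 945 and 2757 counts and a log2 fold change of -1.71 ± 0.64 (edgeR adjusted p = 0.0788). Neither passed the test, although the groups did not overlap for either gene. A fit without 1 library leaves an arm of 1, which is assumed to vary like the other group, whose pair alone gives the spread; such calls show dependence on a library and no support. Without spermidine replicate 2 both were called lower, Hsp90ab1 at -1.54 (edgeR adjusted p = 0.0110) and Hsp90aa1 at -2.15 (0.00161), and Hsp90aa1 also with upper-quartile scaling (0.0343) and by DESeq2 (0.0209). Per kilobase of its own bases, Hsp90ab1 was the highest of the members with at least 300 own bases in every library, at 6063.4 and 7672.0 CPM in control and 2253.2 and 3103.1 CPM in spermidine. Hspa8 came next in all 4 libraries and Hsp90aa1 after it.

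Among the 10 HSP70 members, 7 were tested: Hspa9 was called lower, Hspa12a and Hspa12b higher, and the median log2 fold change was 0.58. Hspa12a and Hspa12b had 0 controls over the low-count filter and Hspa1a had 1, so they entered the test through the spermidine libraries. This median therefore supports no statement about HSP70 genes as a group. Hspa9, mortalin of mitochondria, which pulls proteins in through the inner membrane, had 21439 and 19946 counts in control and 512 and 1350 in spermidine. It fell by 1.95 ± 0.60 on the log2 scale (edgeR adjusted p = 0.0377), and both spermidine libraries lay below both controls. The call was lost without control replicate 1 (adjusted p = 0.338), control replicate 2 (0.332) or spermidine replicate 1 (0.0677), and kept without spermidine replicate 2 (0.00093). It was also lost with a replicate block (log2 fold change -2.00, edgeR adjusted p = 0.128). Hspa8, the constitutive HSC70, had 39509 and 32684 counts in control and 908 and 4386 in spermidine, at -1.33 ± 0.71 (edgeR adjusted p = 0.201). The spermidine libraries differed from each other for Hspa8 by a ratio of 3.01 (95% counting interval 2.80 to 3.23), with replicate 1 lower. Without spermidine replicate 2, Hspa8 was called lower at -2.28 (edgeR adjusted p = 0.00112).

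Hspa12a and Hspa12b are distant relatives of HSP70 with an atypical ATPase domain. Hspa12a had 2 and 0 counts in control and 8 and 7 in spermidine, a pooled ratio per scaled count of 45.4 (95% counting interval 10.6 to 409.6; edgeR adjusted p = 0.00953). Hspa12b had 7 and 11 counts in control and 6 and 37 in spermidine, which is 1.01, 1.59, 6.86 and 26.3 CPM, and a log2 fold change of 3.74 ± 0.96 (edgeR adjusted p = 0.0187). The groups did not overlap for either gene. The counts per base seen on receptor genes in spermidine replicate 1 would put 3.47 counts on Hspa12a and 7.58 on Hspa12b, against 8 and 6 observed. Hspa12a was not called without control replicate 1 (edgeR adjusted p = 0.0750), control replicate 2 (0.0690) or spermidine replicate 1 (0.0877). Hspa12b was not called without control replicate 1 (edgeR adjusted p = 0.225), control replicate 2 (0.0996), spermidine replicate 1 (0.0598) or spermidine replicate 2 (0.0833).

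The heat-inducible pair Hspa1a and Hspa1b, the classical targets of HSF1, separated the controls rather than the groups. Hspa1a had 10 counts in control replicate 1 and 577 in control replicate 2, against 49 and 99 in spermidine. Hspa1b had 48 and 784 in control and 59 and 258 in spermidine. Control replicate 2 was thus 57.6 times (95% counting interval 31.1 to 120.8) above control replicate 1 for Hspa1a and 16.3 times (12.2 to 22.3) for Hspa1b. On the scaled CPM, both spermidine libraries of Hspa1a (56.0 and 70.5) lay between the controls (1.45 and 83.5), while for Hspa1b (67.5 and 183.6 against 6.96 and 113.4) the groups overlapped. Among the 4055 tested genes with at least 100 control counts, Hspa1a had the 5th highest and Hspa1b the 16th highest ratio of control replicate 2 to control replicate 1. With log2 ratios of 5.78 and 4.01, they stood beside an SD of 0.76 over these genes. The log2 fold change was 0.58 ± 1.22 for Hspa1a (edgeR adjusted p = 0.753) and 1.08 ± 1.04 for Hspa1b (0.474). Without control replicate 2 both would be called higher, Hspa1a at 5.41 (edgeR adjusted p = 0.0305) and Hspa1b at 4.18 (0.0382), with the spread taken from the spermidine pair alone, and without control replicate 1 Hspa1a was at -0.33.

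Several other chaperone genes lay closer between the controls. The ratio of control replicate 2 to control replicate 1 was 2.06 (95% counting interval 1.80 to 2.37) for the J protein gene Dnajb1 and 1.42 (1.31 to 1.55) for Bag3. It was 0.814 (0.802 to 0.826) for Hsp90aa1 and 0.826 (0.814 to 0.838) for Hspa8. The transcripts of Hspa1a and Hspa1b share much sequence: 38.1% of the windows of 150 bases, the read length, in Hspa1a are also in Hspa1b, and 40.5% the other way, so the split of counts between them is uncertain. Hspa1l, their testis-enriched neighbour, had 62 and 72 counts in control and 15 and 15 in spermidine, at 0.47 ± 0.78 (edgeR adjusted p = 0.686).

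**Figure D3:**
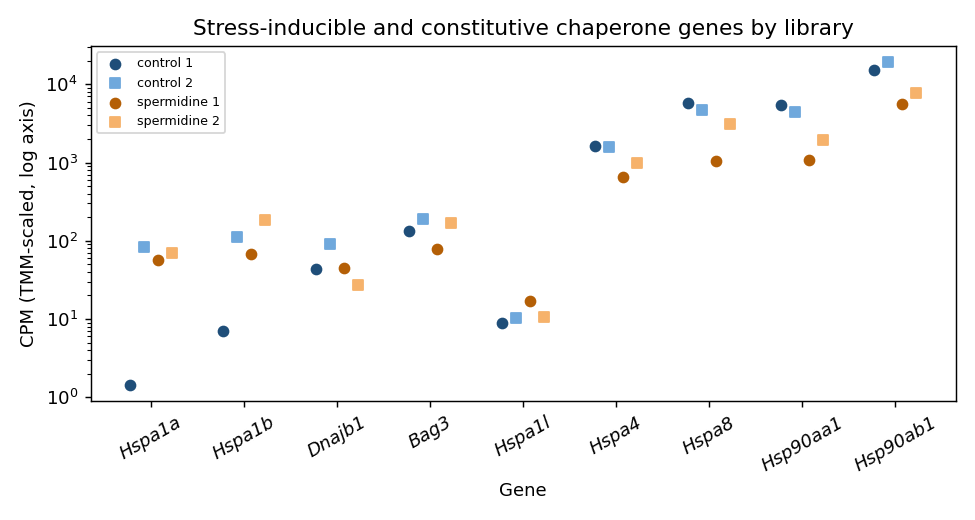
CPM (log axis) of heat-inducible and constitutive chaperone genes in each of the 4 libraries. Control replicate 1 is far below the other 3 libraries for Hspa1a (1.45 CPM) and Hspa1b (6.96 CPM).

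The promoters of this pair are shown because both genes differed widely between the controls and because their upstream windows are near copies. The windows are the 250 bases before the annotated starts of Hspa1a (chr17:34972157-34972406, minus strand) and Hspa1b (chr17:34959239-34959488, minus strand), from RefSeq on GRCm38.p6. Each is read 5′ to 3′ on the gene's strand, and capitals mark matches to a pair of inverted heat shock units, GAANNTTC or TTCNNGAA.
Hspa1a: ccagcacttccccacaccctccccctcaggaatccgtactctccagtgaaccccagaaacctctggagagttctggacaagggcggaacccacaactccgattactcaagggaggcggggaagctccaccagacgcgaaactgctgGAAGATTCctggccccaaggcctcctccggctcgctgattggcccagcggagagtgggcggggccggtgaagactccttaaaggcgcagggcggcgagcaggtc
Hspa1b: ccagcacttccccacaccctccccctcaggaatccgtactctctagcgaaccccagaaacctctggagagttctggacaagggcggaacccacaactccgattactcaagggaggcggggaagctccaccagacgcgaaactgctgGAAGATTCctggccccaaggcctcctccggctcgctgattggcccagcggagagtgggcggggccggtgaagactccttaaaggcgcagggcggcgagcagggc
Of the 250 positions, 247 are identical, and both windows hold 1 match, from -104 to -97 relative to the start. The genes lie 10120 bases apart, and Hspa1l starts 546 bases from Hspa1a on the other strand.

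The HSP110 genes encode large relatives of HSP70 that act as its nucleotide exchange factors. Hspa4 had 11233 and 10989 counts in control and 577 and 1396 in spermidine, at -0.96 ± 0.55 (edgeR adjusted p = 0.226). Both spermidine libraries lay below both controls, and it was called lower without spermidine replicate 2 (edgeR adjusted p = 0.0298). Hspa4l had 275, 214, 28 and 14 counts and overlapping CPM, at -0.84 ± 0.75 (edgeR adjusted p = 0.436). Hsph1 could not be seen, since it has no base of its own in the table. The HSP-binding gene Hspbap1 had 17, 7, 5 and 1 counts in the same order, at 0.63 ± 1.13 (edgeR adjusted p = 0.709), with overlapping groups.

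The mitochondrial chaperonin genes were both lower in spermidine, and Hspe1 passed the test. Hspe1 encodes HSP10, the lid of the HSP60 barrel. It had 7655 and 6000 counts in control and 141 and 456 in spermidine, or 1109.3, 868.2, 161.2 and 324.6 CPM. It fell by 2.02 ± 0.58 on the log2 scale (edgeR adjusted p = 0.0298). The call was lost without control replicate 1 (edgeR adjusted p = 0.287), control replicate 2 (0.193) or spermidine replicate 1 (0.0845), and with a replicate block (log2 fold change -2.09, adjusted p = 0.0877). Hspd1, HSP60 itself, could be counted on 154 of its bases and had 41, 34, 1 and 3 counts, at -1.62 ± 0.96 (edgeR adjusted p = 0.235).

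The sequence between these genes is shown because they are transcribed away from each other from a shared stretch of 215 bases, so the same bases lie before both starts. It lies at chr1:55087933-55088147 (RefSeq, GRCm38.p6) and is read 5′ to 3′ on the plus strand, in the direction of Hspe1. Capitals mark 3 overlapping matches to GAANNTTC or TTCNNGAA.
Hspd1-Hspe1 gap: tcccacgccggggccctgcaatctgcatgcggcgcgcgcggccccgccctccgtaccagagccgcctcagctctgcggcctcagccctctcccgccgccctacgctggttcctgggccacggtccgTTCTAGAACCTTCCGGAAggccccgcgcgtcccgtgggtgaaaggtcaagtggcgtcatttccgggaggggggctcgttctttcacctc
Relative to the start of Hspe1 the matches begin at -89, -84 and -79, and relative to Hspd1 at -144, -139 and -134.

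All 6 tested CCT subunits lay below both controls in both spermidine libraries, none was called, and the median log2 fold change was -1.55. Over all tested genes 29.6% lay below both controls, and 70.4% of those with a mean log2 CPM that reached 8. Cct4 had 13634 and 9538 counts in control and 298 and 967 in spermidine, at -1.70 ± 0.60 (edgeR adjusted p = 0.0650). Cct7 had 11581, 10445, 337 and 1341 counts, at -1.25 ± 0.61 (edgeR adjusted p = 0.166). The others ran from -1.11 (Cct3) to -1.71 (Cct6a). At an unadjusted p under 0.05, 3 of the 6 passed, as did 3113 of all 7836 tested genes. DESeq2 called Cct4 (adjusted p = 0.0287) and Cct6a (0.0336) lower. Without spermidine replicate 2, edgeR called Cct3, Cct4, Cct6a, Cct7 and Cct8 lower (adjusted p from 0.000631 to 0.00718), with the spread taken from the controls alone. The subunits form 1 ring in equal parts, and their RNA levels per kilobase of own bases were close in the controls. Over 5 subunits with at least 300 own bases, the highest was 1.39 and 1.37 times the lowest in control, 2.30 times in spermidine replicate 1 and 1.57 times in spermidine replicate 2. Cct8 was lowest in every library. The subunit genes Tcp1 (10, 2, 0 and 0 counts) and Cct2 (13, 6, 3 and 0) have 86 and 114 bases of their own and were not tested.

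**Figure D4:**
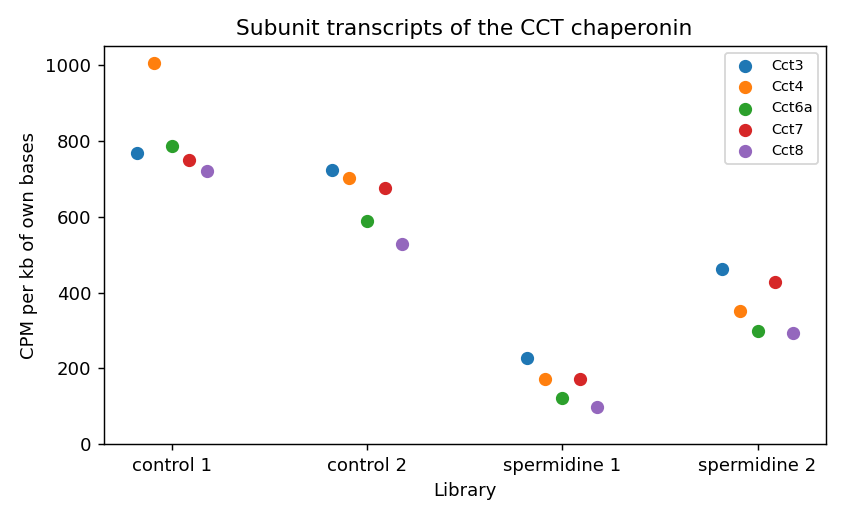
CPM per kilobase of own bases for 5 CCT subunits (those with at least 300 own bases), 1 point per library. All 5 are lower in both spermidine libraries, and Cct8 is lowest in each library.

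The J proteins are given by class. In class A, the relatives of bacterial DnaJ, both tested genes lay below both controls: Dnaja2 (5810, 4995, 201 and 575 counts) at -1.29 ± 0.54 (edgeR adjusted p = 0.114) and Dnaja1, read on 299 own bases, with 19, 20, 1 and 2 counts at -1.09 ± 0.91 (0.402). Dnaja2 was called lower without spermidine replicate 2 (edgeR adjusted p = 0.00722). In class B, 5 of 11 were tested, 1 was called higher and the median was -0.16. Dnajb1, the partner of HSP70 in disaggregation, had 302 and 624 counts in control and 39 and 38 in spermidine, with overlapping CPM and a log2 fold change of -0.93 ± 0.65 (edgeR adjusted p = 0.321). Dnajb12, of the endoplasmic reticulum membrane, had 371, 515, 42 and 92 counts, at -0.16 ± 0.56 (edgeR adjusted p = 0.854).

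Dnajb3, a J protein gene of 1 row on the minus strand of chromosome 1 (88204732 to 88205748, GRCm38), was the called class B member. It had 2 and 0 counts in control and 16 and 4 in spermidine, a pooled ratio of 60.6 (95% counting interval 14.7 to 534.7; edgeR adjusted p = 0.0132). Background as on receptor genes would give 3.25 of the 16 counts in spermidine replicate 1. The call was lost without control replicate 1 (edgeR adjusted p = 0.0794), control replicate 2 (0.0716) or spermidine replicate 1 (0.133).

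Class C is the most diverse, and 9 of its 28 genes were tested, with no call and a median of -0.15. Dnajc8, a J protein linked to splicing, had 2654, 3622, 187 and 453 counts, at -0.76 ± 0.52 (edgeR adjusted p = 0.314), with both spermidine libraries below both controls. Dnajc3, an inhibitor of the kinase PERK in the endoplasmic reticulum, had 2286, 1961, 132 and 559 counts and overlapping groups, at -0.15 ± 0.58 (edgeR adjusted p = 0.868). Only 1 class C member had an unadjusted p under 0.05 by edgeR, and DESeq2 called none.

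Among regulators and co-chaperones, Stip1, the scaffold that joins HSP70 to HSP90, had 7276 and 8373 counts in control and 308 and 1012 in spermidine. Both spermidine libraries were below both controls, at -1.08 ± 0.57 (edgeR adjusted p = 0.196), and Stip1 was called lower without spermidine replicate 2 (0.00805). Bag3, an HSP70 co-chaperone of selective autophagy and a target of HSF1, had 920 and 1312 counts in control and 69 and 237 in spermidine. Scaled, its 133.3, 189.8, 78.9 and 168.7 CPM overlapped between the groups, at -0.37 ± 0.57 (edgeR adjusted p = 0.664). Hsf1 itself had 1 count in all 4 libraries, on 122 own bases, and Bag1 has no base of its own.

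The tested small HSPs had few counts in control and more per library size in spermidine. Of 8 members, 4 were tested; all 4 lay above both controls (36.6% of all tested genes did) and 3 were called higher (24.8% of all tested genes were), with a median log2 fold change of 4.49. None of the 4 had both controls over the low-count filter, so they entered the test through the libraries where they were high, and these counts and this median support no statement about small HSPs as a group. Hspb1, the mouse HSP25, had 8 and 5 counts in control and 6 and 93 in spermidine, or 1.16, 0.723, 6.86 and 66.2 CPM. It rose by 5.32 ± 1.14 on the log2 scale (edgeR adjusted p = 0.00843), with most of the size from spermidine replicate 2, which was 9.65 times (95% counting interval 4.27 to 27.0) replicate 1. Without spermidine replicate 2 the value was 2.89 (edgeR adjusted p = 0.0470), and without control replicate 1 the call was lost (0.0750). Hspb8, a partner of BAG3 in selective autophagy, had 9 and 25 counts in control and 16 and 62 in spermidine, or 1.30, 3.62, 18.3 and 44.1 CPM, and rose by 3.70 ± 0.88 (edgeR adjusted p = 0.0132). It was not called without control replicate 1 (adjusted p = 0.231), control replicate 2 (0.0597) or spermidine replicate 1 (0.0795).

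Hspb7, a muscle small HSP, had 2 and 1 counts in control and 14 and 7 in spermidine, a pooled ratio of 42.4 (95% counting interval 12.7 to 222.1; edgeR adjusted p = 0.00749). The call was lost without control replicate 1 (edgeR adjusted p = 0.0945), control replicate 2 (0.0651) or spermidine replicate 1 (0.0603). Hspb9 had 11, 10, 3 and 4 counts, at 1.0 ± 0.80 (edgeR adjusted p = 0.382). Background as on receptor genes would put 2.89, 5.81 and 8.86 counts on Hspb1, Hspb8 and Hspb7 in spermidine replicate 1, against 6, 16 and 14 observed. With that background subtracted from every gene, Hspb1, Hspb7, Hspb8 and Dnajb3 were still called higher, and Hspa12a and Hspa12b no longer passed the count filter. The subtraction used a mean rate per base, and single genes departed from it in both directions in spermidine replicate 1. The untested Dnajc28 had 15 counts there against 0.544 from that rate, and Dnajb8 had 1 against 3.16. Whether the calls that were kept exceed an uneven background was not tested. All 6 members called higher had fewer than 2 controls over the filter of 2.26 CPM. They entered the test through the spermidine libraries, so these 6 are no count of members that differed among all members.

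The promoter of Hspb1 is also shown, the only one among members called higher that holds a pair of inverted heat shock units. It is the 250 bases before the start at chr5:135887669-135887918 (plus strand, RefSeq, GRCm38.p6), and capitals mark GAANNTTC or TTCNNGAA.
Hspb1: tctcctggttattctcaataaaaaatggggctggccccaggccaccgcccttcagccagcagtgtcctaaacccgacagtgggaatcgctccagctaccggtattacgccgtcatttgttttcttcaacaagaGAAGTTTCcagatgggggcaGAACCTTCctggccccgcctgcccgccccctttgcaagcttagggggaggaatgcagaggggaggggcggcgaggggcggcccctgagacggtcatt
It holds 2 matches, from -117 to -110 and from -97 to -90.

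Promoter windows of 250 bases were at hand for 68 members (85 windows) and were searched on both strands. A pair of inverted heat shock units, GAANNTTC or TTCNNGAA, was in 19 member windows (22.4%) of 17 members and in 4218 of all 32851 windows (12.8%). Overlapping matches were in windows of Hspd1, Hspe1 and Dnajb6. The GC box GGGCGG was in 67.1% of member windows and 32.7% of all, the CCAAT box in 31.8% and 33.8%, and TATAAA in 5.88% and 12.4%. Windows of the same gene overlap, and some members share bases or near copies. The windows of Hspd1 and Hspe1 hold the same 3 matches, and those of Hspa1a and Hspa1b are near copies. Some matches are therefore counted repeatedly, and a match is only a match of letters. Members with a match had calls in both directions or none: Hspe1 was called lower, Hspb1 higher, and Hspa1a and Hspa1b were not called. No match was in the windows of Hspa12a, Hspa12b, Dnajb3, Hspb7 and Hspb8, all called higher, or of Bag3 and Dnajb1. No window was at hand for Hspa9, which was called lower, or for Hsp90aa1, Hsp90ab1, Hspa8 and Cct4.

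**Figure D5:**
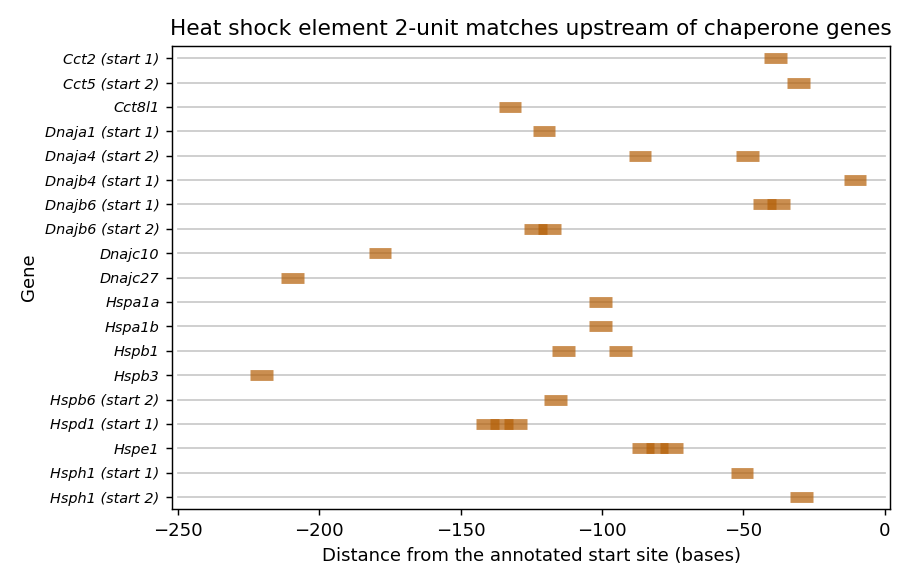
Positions of 2-unit heat shock matches in the 250 bases before each start, in bases from the start; 1 line per window that holds a match. Hspd1, Hspe1 and Dnajb6 have overlapping matches, and Hspa1a and Hspa1b share the position -104.

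Members that were not tested are 42 genes. Of these, 27 have under 300 bases of their own and 15 have more, and 9 had no count in any library. A gene unseen here is not shown to be silent, since reads that overlap several transcript rows were not counted. Of the untested, 5 had at least 10 counts in spermidine replicate 1 and 0 in spermidine replicate 2: Cct6b (20), Dnajb14 (16), Dnajc19 (27), Dnajc2 (15) and Dnajc5 (10), named after their values were seen. The testis gene Cct6b had no control count. No untested member exceeded 27 counts in a library.

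Members held 4.31% (95% exact interval 4.29 to 4.32) and 4.39% (4.37 to 4.40) of control counts outside AY036118, and 2.01% (1.97 to 2.05) and 2.60% (2.57 to 2.63) of spermidine counts. Within the members' counts, Hsp90ab1 took 34.4% (34.2 to 34.5) and 43.2% (43.0 to 43.4) in control and 44.3% (43.4 to 45.2) and 35.3% (34.8 to 35.8) in spermidine. For Hsp90ab1 the groups overlapped, as they did for the HSP90, HSP70, CCT, class A J protein and HSP-binding roles as wholes. They did not overlap for the roles given next, nor for HSP110 and for the regulators and co-chaperones. Small HSPs took 0.0151% (0.0110 to 0.0201) and 0.0182% (0.0138 to 0.0236) of member counts in control and 0.601% (0.466 to 0.763) and 0.552% (0.473 to 0.641) in spermidine. The share in spermidine replicate 1 rests on 67 counts, of which 23 were on the untested Hspb11, against 2 in spermidine replicate 2. Hspb11 was placed with the small HSPs by its symbol alone. Background as on receptor genes would put 11.0 counts on Hspb11 in spermidine replicate 1, and the intervals do not cover it. Class C J proteins took 2.66% (2.60 to 2.72) and 3.04% (2.98 to 3.10) in control and 6.00% (5.57 to 6.46) and 5.21% (4.96 to 5.46) in spermidine. Class B took 0.380% and 0.476% against 1.33% and 0.743%, and the mitochondrial chaperonin 2.52% and 1.96% against 1.27% and 1.48%. The shares add up to a whole and are not independent of each other.

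Other chaperone genes outside the members, a list of 32 HSP90 and HSP70 partners, prefoldin subunits and relatives, are given for comparison. Of 21 tested, 16 had a negative log2 fold change (45.7% of all tested genes did) and 11 lay below both controls (29.6% did), with a median of -0.67. By edgeR 0 were called lower (3.99% of all were) and 1 higher (24.8% were), and 3 of the 21 had an unadjusted p under 0.05, beside 3113 of all 7836. The called gene was Hsf2, a relative of Hsf1, with 2 and 1 counts in control and 18 and 9 in spermidine, a pooled ratio of 54.5 (95% counting interval 16.8 to 280.9; edgeR adjusted p = 0.00721). Hsf2 has 4502 own bases, and receptor genes had 3.2 counts per kilobase of own bases in spermidine replicate 1. The part of that background in its counts was not tested. Like the members called higher, Hsf2 entered the test through the spermidine libraries. Hsp90b1, the HSP90 of the endoplasmic reticulum, had 24291, 28027, 875 and 4297 counts, at -0.90 ± 0.69 (edgeR adjusted p = 0.368).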

How the data were processed

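Per the labels' protocols, mRNA was purified from DNase-treated RNA for paired-end sequencing, and more than 1 library kit is named. HISAT2, DESeq2 and the build mm9 are named in the submitters' processing notes with no roles or versions, with the counting program left unnamed. Raw counts were deposited for 106519 RefSeq transcript rows. Positions are given as GRCm38, since 88.5% of the matched rows fell within the span of their gene on that build; mm9 spans were not compared. The other deposited column, row length, is in bases per the file headers.

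Of the rows, 86040 (80.8%) matched a symbol, and rows were summed per gene to 53291 features. The 49975 rows that lack an own base took 0.0014% of counts or less, so genes are counted on bases that no other row covers, called own bases. Genes were filtered with filterByExpr (count minimum 10, total minimum 15), scaled by TMM (factors 0.961, 0.973, 1.30 and 0.824 for control replicates 1 and 2 and spermidine replicates 1 and 2) and tested with edgeR 4.0.16 (quasi-likelihood, R 4.3.3) on 2 residual degrees of freedom, with p adjusted by Benjamini-Hochberg over the 7836 tested genes and called under 0.05. Replicates of a group differed by more than counting noise (chi-square over degrees of freedom 21.2 and 17.1). The procedure was tested on simulated counts. CPM are scaled by TMM, and errors are SE.

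The members and lists were chosen with earlier results of these data known. Named are every called member, the 2 most abundant tested members of each role group and fixed members; others were chosen after their values were seen. The alternatives covered scaling, filter, DESeq2 1.42.0, the legacy edgeR test, a replicate block, depth, background, gene sets and each library left out.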

Additional observations from a re-analysis of the deposited data

How the results depend on the processing

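The count of genes called (2256) was 0 unfiltered (edgeR; 4255 genes had a raw p under 0.05), 275 where each of the 4 libraries had to reach 1 CPM, 355 at equal depth without AY036118, 1490 with receptor background subtracted, and 0 to 3725 when a library was left out. Members called higher (6) numbered 0 with no filter (8 unadjusted), 1 with 1 CPM in all libraries, 0 at equal depth (2 unadjusted) and 0 to 5 with a library left out. Without control replicate 1, edgeR made no call (1926 genes unadjusted, 4 members higher). Members called lower (2) numbered 6 with upper-quartile scaling, 5 with DESeq2, 1 with the legacy edgeR test, 4 among genes with a single row, 4 among genes with at least 300 own bases, 0 with no filter, 0 with 1 CPM in all libraries, 0 at equal depth, and 0 to 13 with a library left out. The legacy test and the 300-base limit were chosen after seeing the data. With a replicate block, 1775 genes, 6 members higher and 0 lower were called; Hspa9 read -2.00 (adjusted p = 0.128) and Hspe1 -2.09 (0.0877). Same-numbered libraries did not deviate together (correlation -0.0299). With 2 libraries per group this sets a single difference against another, so it cannot decide whether the numbers pair them. The labels do not say.

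Signs were followed for the called members, the 2 most abundant tested members of each role group and the tested fixed members. They turned for 7 of these, none of them called. The signs of the other tested members were not followed. With a library left out, log2 fold changes ran from -0.964 to 0.0622 for Bag3 (highest without spermidine replicate 1), -0.348 to 0.0854 for Dnajb12 (positive without control replicate 2 or spermidine replicate 1), -0.972 to 0.372 for Dnajc3 (positive without control replicate 1 or spermidine replicate 1), -0.33 to 5.41 for Hspa1a (negative without control replicate 1) and -1.26 to 1.75 for Hspbap1 (negative without spermidine replicate 1). At equal depth Bag3 was at 0.38, Dnajb12 at 0.91, Dnajc3 at 0.78, Dnajc8 at 0.0266 and Hspa4l at 0.64. With 1 CPM in all libraries Dnajb12 was at 0.20 and Dnajc3 at 0.18, and with background subtracted at 0.0425 and 0.0159. The causes were not tested. The median over all tested genes was 0.23 with TMM, 0.29 with RLE and 0.37 with upper-quartile factors.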
